A study of Mus musculus with 3 samples.

Results

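NADPH oxidases are membrane enzymes that take electrons from NADPH in the cytosol and pass them to oxygen outside the cell or inside a vesicle. The genes described here are the 10 that encode 5 catalytic subunits of this family (Nox1, Nox4, Cybb, Duox1 and Duox2) and the organiser, activator, membrane and maturation partners Noxo1, Noxa1, Cyba, Duoxa1 and Duoxa2. They are taken by symbol and role, by a rule that uses no measured value of these files, although the choice was made with earlier results of these data known. All 10 were found among the 24346 gene symbols of the deposited tables. The question asked of them was whether each catalytic subunit had its partner in resting distal colon.

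The samples were 3 libraries labelled as polyadenylated RNA of distal colon from wild-type mice of the strain label JAX, which is a supplier's name. The mice were 8 weeks old, untreated as far as the labels go (steady state), and the colon was rinsed in PBS and frozen. All libraries carry the same labels and form 1 group, so nothing here compares conditions. The labels do not say whether each library came from its own animal, and the names of the 3 files share 1 sequencing index and lane. Level is given in FPKM, fragments per kilobase of transcript scaled to the mapped fragments of the file, which can be compared between genes of unequal length. A gene's FPKM is the sum over its listed isoforms, and it is called present here at 1 FPKM or more in every file.

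In the textbook scheme, Nox1, the main superoxide-making oxidase of colon epithelium, is bound to Cyba (p22phox) in the membrane and is switched on by the organiser Noxo1, the activator Noxa1 and the GTPase Rac1. Cybb (gp91phox) is the oxidase of phagocytes and uses the same Cyba with another cytosolic set that includes Ncf1 and Ncf4. Nox4 needs Cyba but no cytosolic organiser, while Duox1 and Duox2 release hydrogen peroxide under control of calcium and must be carried to the surface by the maturation factors Duoxa1 and Duoxa2. In the gut, Nox1 and Duox2 are known for epithelial defence against microbes at the surface.

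The depth read back from the deposited confidence bounds was about 3781000, 3786000 and 1243000 mapped fragments for replicates 1, 2 and 3, so replicate 3 was the shallowest. Across 8771 single-isoform genes averaging 1 FPKM or more, a chi-square test against sampling noise with Benjamini-Hochberg adjustment called 7 genes (0.0798%) as unequal between files. The median ratio of variance between files to sampling variance was 0.677, beside 0.715 in data simulated for those genes with no change. The files therefore differed by about the sampling noise and were counted as 1 sample. A value written as mean ± SD gives the spread of 3 measurements of that sample and says nothing about the spread between animals. All 8 epithelial markers on the list were present, at a median of 538 FPKM, as were all 5 smooth muscle markers (median 278 FPKM), all 5 fibroblast markers (median 44.6 FPKM), all 5 endothelial markers (median 2.18 FPKM) and all 10 macrophage markers (median 7.41 FPKM). None of the 9 neutrophil markers with values and none of the 4 thyroid markers reached 1 FPKM in any file. RNA labelled as distal colon also held all 6 liver markers, with a summed level of 319, 315 and 294 FPKM in replicates 1, 2 and 3 and Alb at 129 ± 5.35 FPKM. Of 6 small intestine markers, Fabp6 (95.6 ± 5.85 FPKM) and Defa24 (63.6 ± 11.3 FPKM) were present in every file and Gata4 was listed at 0. The part of such RNA in the oxidase levels was not tested. The tissue is a mixture, so fewer cells of a type and less RNA per cell cannot be told apart.

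Of the 10 oxidase genes, 7 stood at 1 FPKM or more in every file, against 48.5% of all gene symbols. These were Cyba, Noxo1, Nox1, Duox2, Duoxa2, Noxa1 and Cybb. The other 3, Nox4, Duox1 and Duoxa1, stayed under 1 FPKM in every file. Their 10 means had a median of 10.3 FPKM, beside 1.25 FPKM over all gene symbols. Cyba led with 51.1 ± 10.6 FPKM, at the 94.7th percentile of all gene symbols, and Duoxa1 came last with 0.0639 ± 0.111 FPKM.

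In the order of levels, Cyba was above Noxo1 and Noxo1 above Nox1 without overlap of their file values. Nox1, Duox2, Duoxa2 and Noxa1 followed within a narrow band of mean FPKM, 12.4 to 9.28. Each of these 4 overlapped its neighbour in file values, and each neighbouring ratio had a 95% interval that included 1. Noxa1 had 2.90 times the level of Cybb (interval 2.25 to 3.73) and Cybb 20.6 times that of Nox4 (interval 8.62 to 64.6). Nox4, Duox1 and Duoxa1 could not be ordered at this depth, since they rested on 5, 4.83 and 1 fragments over all files. Intervals are exact binomial ones on the recovered fragments summed over files and cover counting error only.

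**Figure D1:**
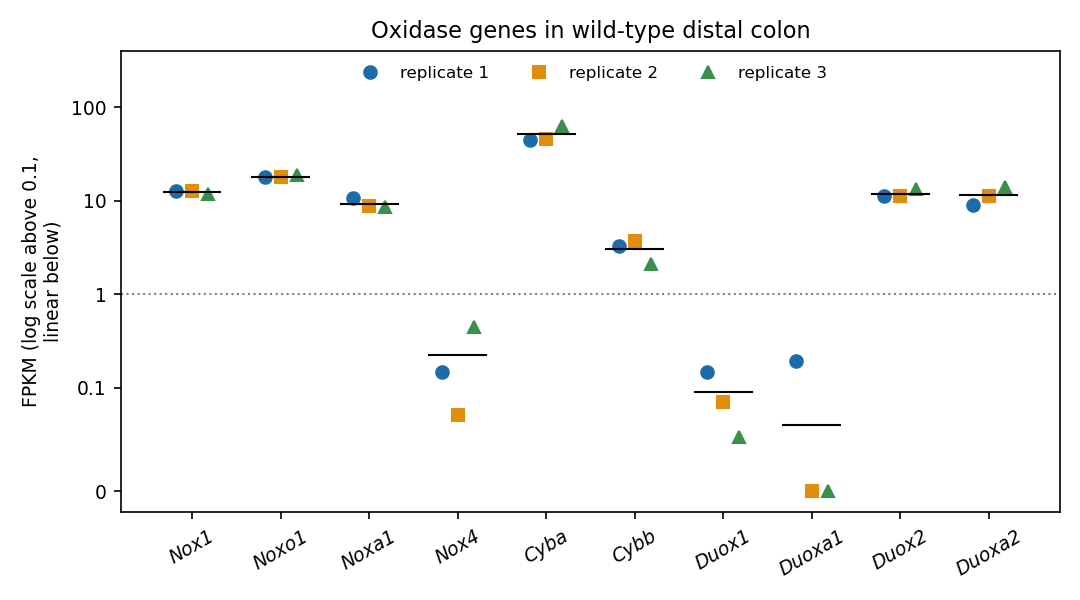
FPKM of each oxidase gene (vertical axis, log scale above 0.1 and linear below) in replicates 1, 2 and 3 (symbols), with the mean as a bar and 1 FPKM as a dotted line. The values of 7 genes lie above the line in every file, while Nox4, Duox1 and Duoxa1 lie below it, and Duoxa1 is at 0 in replicates 2 and 3.

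Nox1 and its partners Noxo1, Noxa1 and Cyba were all present. Nox1 (chromosome X, 134086421 to 134111854 on GRCm38) had 12.8, 12.7 and 11.7 FPKM in replicates 1, 2 and 3, from 116, 115 and 35.0 fragments. The 3 files gave nearly the same level, and the deposited bounds of replicate 3 (7.65 to 15.8 FPKM) held both other values. Across the 5 catalytic genes it supplied 45.1% ± 2.07 of the summed FPKM, which was 27.5 ± 0.141 FPKM.

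Noxo1, the organiser that holds the complex at the membrane (chromosome 17, 24696234 to 24700529), had 17.7, 17.8 and 18.6 FPKM. All 3 values exceeded every Nox1 value. The log2 ratio of Noxo1 over Nox1, with 0.1 FPKM added to each, was 0.54 ± 0.11, and the ratio from summed fragments was 1.42 (interval 1.21 to 1.68). A limit applies to this level, because exons of the Tbl3 gene on the opposite strand cover 60.2% of the Noxo1 exon bases in the GENCODE M21 annotation. The authors' model of Tbl3 lies wholly beyond the 3′ end of Noxo1 and stood at 6.07, 4.72 and 4.10 FPKM. The sources used here do not say whether the counting used strand, so reads of Noxo1 and of that Tbl3 form cannot be told apart.

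Noxa1, the activator (chromosome 2, 25085670 to 25095205), had 10.6, 8.66 and 8.59 FPKM, all below every Nox1 value. The log2 ratio of Noxa1 over Nox1 was -0.42 ± 0.14, and the ratio from summed fragments was 0.753 (interval 0.604 to 0.935). Of the 3 Nox1 partners it was the lowest. Nox1 and Noxa1 also share exon bases with a neighbour on the opposite strand, 15.6% of the bases of Nox1 with Cstf2 and 3.09% of those of Noxa1 with Entpd8. Cstf2 stood at 11.3 ± 0.777 FPKM and Entpd8 at 26.3 ± 0.805 FPKM.

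Noxa1 is listed with 2 isoforms, which differ by a 24-base piece that is shown because it is what tells them apart. That piece lies in the coding sequence in exon 7 of 12, at chr2:25087130-25087153 on the minus strand of GRCm38, and its length is a multiple of 3. It is shown in capitals between the 15 bases on either side in the longer transcript, and the shorter transcript joins those flanks directly:
Noxa1: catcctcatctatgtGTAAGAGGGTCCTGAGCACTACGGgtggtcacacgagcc

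The isoform that keeps the piece had 6.22, 5.20 and 5.55 FPKM in replicates 1, 2 and 3, and the isoform that skips it had 4.38, 3.45 and 3.04 FPKM. The longer form was the higher one in every file, with 61.1% ± 3.09 of the Noxa1 total. Within each file the deposited 95% bounds of the isoforms overlapped, for example 3.71 to 8.73 FPKM for the longer and 2.18 to 6.58 FPKM for the shorter in replicate 1, so the order of the isoforms is not resolved at this depth.

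Cyba, the membrane partner shared by Nox1, Cybb and Nox4 (chromosome 8, 122424771 to 122432940), had 44.6, 45.4 and 63.4 FPKM. Replicate 3, the shallowest file, was the high one, with 46.9 fragments, against 99.8 and 102 fragments in replicates 1 and 2. Its 95% bounds there, 44.5 to 82.3 FPKM for the main isoform, held the 45.4 FPKM of that isoform in replicate 2 but not the 42.7 FPKM in replicate 1. In replicate 1 the other isoform was given 1.95 FPKM (bounds 0 to 4.78). The gene total of that file, 44.6 FPKM, lay just inside 44.5 to 82.3 FPKM. Cyba exceeded Nox1 in every file, with a log2 ratio of 2.02 ± 0.35 and a ratio from summed fragments of 3.78 (interval 3.17 to 4.51). Of its isoforms, the longer took 98.5% ± 2.52 of the total.

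**Figure D2:**
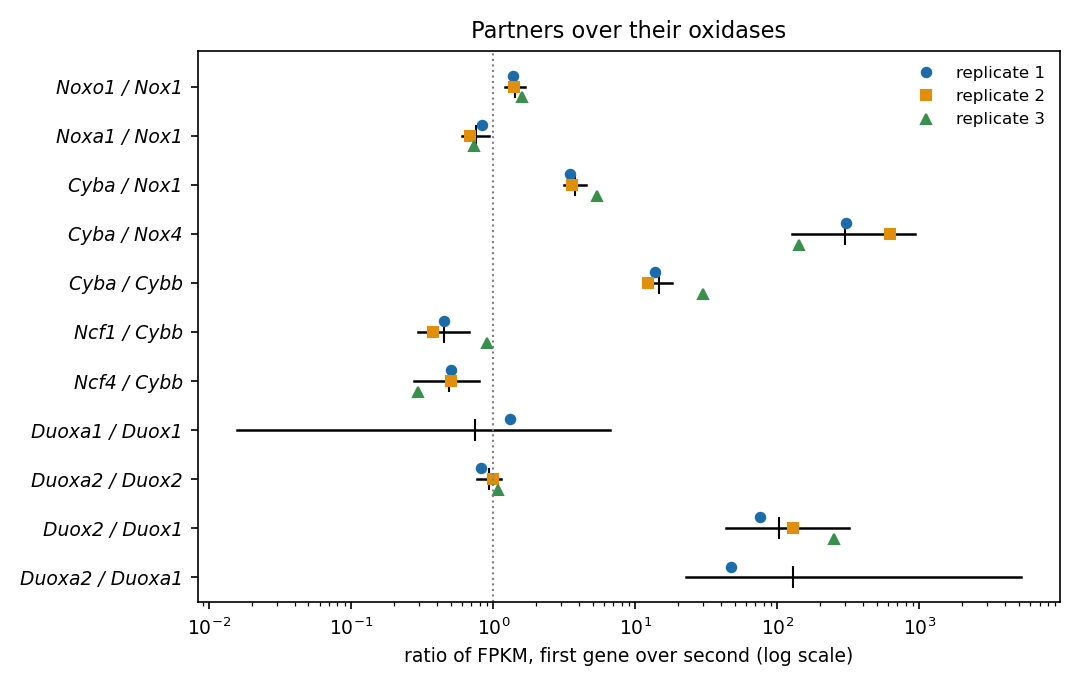
Ratio of FPKM of the first gene over the second (horizontal log axis) for 11 pairs, with replicates 1, 2 and 3 as symbols and the ratio from summed fragments and its exact 95% interval as a tick and a line. Noxo1 and Cyba lie above Nox1 and Noxa1 below it, the interval of Duoxa2 over Duox2 spans 1, and pairs with Nox4, Duox1 or Duoxa1 have wide intervals. Files in which a gene of the pair is at 0 have no symbol.

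Duox2 and its maturation factor Duoxa2 were present at closely similar levels, while Duox1 and Duoxa1 in the same gene cluster were near 0. Duox2 (chromosome 2, 122280437 to 122298165) had 11.1, 11.2 and 13.1 FPKM in replicates 1, 2 and 3. Duoxa2 (chromosome 2, 122298900 to 122302885) had 9.07, 11.1 and 14.1 FPKM. The values of these genes overlapped, the log2 ratio of Duoxa2 over Duox2 was -0.06 ± 0.20, and the ratio from summed fragments was 0.934 (interval 0.764 to 1.14). That interval allows either gene to be the higher. Duox2 supplied 42.9% ± 4.27 of the catalytic FPKM, beside 45.1% for Nox1.

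Duox1 (chromosome 2, 122315672 to 122347972) had 0.147, 0.0863 and 0.0525 FPKM. Duoxa1 (chromosome 2, 122303549 to 122313730) had 0.192 FPKM in replicate 1, from 1 fragment, and was listed at 0 in replicates 2 and 3. Both lay far below their counterparts in every file. The ratio of Duox2 over Duox1 from summed fragments was 103 (interval 43.6 to 317), and that of Duoxa2 over Duoxa1, with 134 fragments against 1, was 129 (interval 22.8 to 5149). The single Duoxa1 fragment lay in replicate 1, and without that file Duoxa1 is at 0 and gives no ratio. For Duoxa1 over Duox1 the interval, 0.0156 to 6.61, gave no order.

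The small Duox1 level is itself uncertain. The Duox1 and Duox2 transcripts share an identical stretch of 170 bases. The recovered fragments of Duox1 were 2.83, 1.67 and 0.333 and those of Duox2 were 184.1, 185.4 and 71.7, which are not whole numbers, while their sums, 187.0, 187.1 and 72.0, were close to whole. The sources used here do not say how reads that match both genes were divided, and the share of such reads in the Duox1 value was not tested. Duoxa2 carries another limit, since in GENCODE M21 exons of Duoxa1 on the opposite strand cover 42.8% of its exon bases, whereas the authors' model of Duoxa1 lies wholly beyond the end of Duoxa2.

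In each Duox pair the oxidase and its maturation factor lie head to head, with 673 bases between the annotated starts of Duox2 and Duoxa2 and 1942 between those of Duox1 and Duoxa1. The windows from 250 bases before to 50 after each RefSeq start on GRCm38.p6 are printed 5′ to 3′ on the strand of each gene, because both genes of one pair were present and both of the other were near 0. They lie at chr2:122298178-122298477 (minus strand) for Duox2, chr2:122298650-122298949 (plus) for Duoxa2, chr2:122313681-122313980 (minus) for Duoxa1 and chr2:122315422-122315721 (plus) for Duox1. Capitals mark matches on either strand to 4 motifs, which are TATAAA of the TATA box type, GGGCGG of the GC box type, AGATAA as bound by GATA factors and GTTAAT as in HNF1 sites:
Duox2: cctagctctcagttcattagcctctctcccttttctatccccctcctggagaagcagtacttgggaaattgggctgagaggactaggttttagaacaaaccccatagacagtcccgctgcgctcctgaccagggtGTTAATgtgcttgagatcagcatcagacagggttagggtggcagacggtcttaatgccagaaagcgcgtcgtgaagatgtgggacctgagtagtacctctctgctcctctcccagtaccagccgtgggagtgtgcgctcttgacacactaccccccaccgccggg
Duoxa2: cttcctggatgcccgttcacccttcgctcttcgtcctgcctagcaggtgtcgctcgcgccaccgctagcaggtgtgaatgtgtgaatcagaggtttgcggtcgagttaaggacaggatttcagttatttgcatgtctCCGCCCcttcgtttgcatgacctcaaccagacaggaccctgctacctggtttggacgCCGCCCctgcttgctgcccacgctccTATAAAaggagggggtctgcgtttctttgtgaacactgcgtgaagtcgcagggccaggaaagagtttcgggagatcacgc
Duoxa1: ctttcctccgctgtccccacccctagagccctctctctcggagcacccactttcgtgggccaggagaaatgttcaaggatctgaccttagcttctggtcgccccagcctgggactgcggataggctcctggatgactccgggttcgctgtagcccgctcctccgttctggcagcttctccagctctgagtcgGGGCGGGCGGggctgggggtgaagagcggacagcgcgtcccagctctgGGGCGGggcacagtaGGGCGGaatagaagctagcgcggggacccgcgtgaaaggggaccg
Duox1: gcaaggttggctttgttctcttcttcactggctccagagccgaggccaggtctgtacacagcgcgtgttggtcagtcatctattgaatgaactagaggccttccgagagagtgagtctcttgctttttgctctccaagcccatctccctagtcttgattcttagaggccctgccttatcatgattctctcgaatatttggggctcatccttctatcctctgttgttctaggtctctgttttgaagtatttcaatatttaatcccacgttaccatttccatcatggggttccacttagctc

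The Duoxa2 window held a TATAAA at 30 bases before its start, a match found in 13.6% of 32851 RefSeq windows of this length, and 2 GGGCGG matches, which 35.7% of windows hold at least once. The Duox2 window held 1 GTTAAT, as did 7.10% of windows, and no TATAAA. In the Duoxa1 window there were 4 GGGCGG matches, of which 2 overlap each other, and in the Duox1 window there was no match to any of the 4 motifs. CG dinucleotides numbered 10 in the Duox2 window, 19 in Duoxa2, 22 in Duoxa1 and 6 in Duox1, with a median of 7 over all windows. The window of the near-absent Duoxa1 was thus the richest of the 4 in CG. A match is a run of letters and says nothing about binding.

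**Figure D3:**
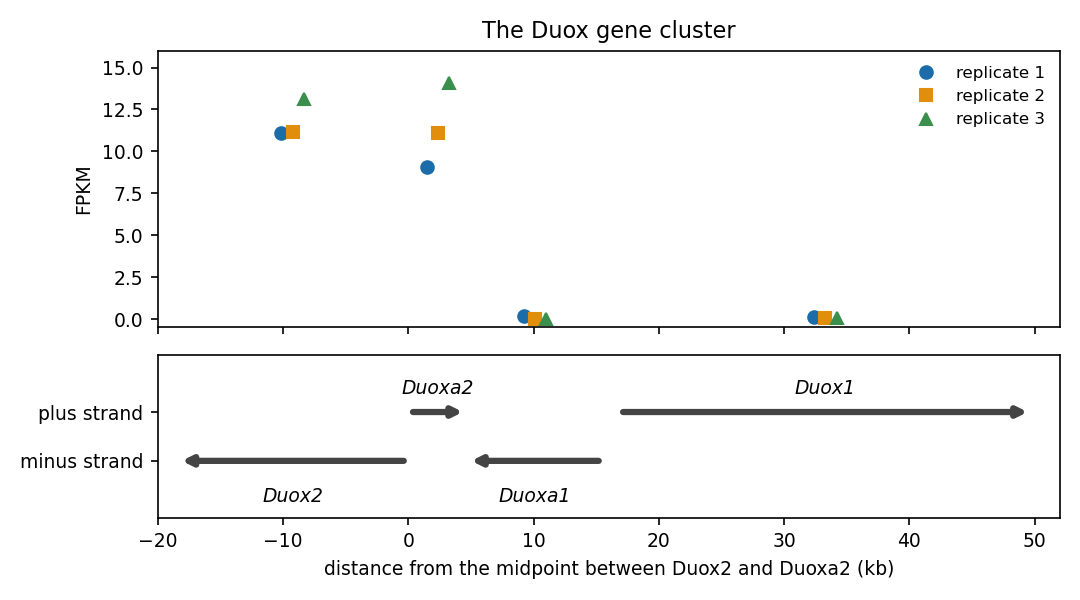
FPKM of the 4 Duox cluster genes in replicates 1, 2 and 3 (upper panel) above their position and strand (arrows, lower panel), with the horizontal axis in kilobases from the midpoint between Duox2 and Duoxa2. Duox2 and Duoxa2 stand between 9.07 and 14.1 FPKM, and Duoxa1 and Duox1 stand at 0.192 FPKM or less.

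Cybb, the phagocyte oxidase (chromosome X, 9435254 to 9469324), was present at a lower level with an uneven set of partners. It had 3.23, 3.69 and 2.104 FPKM, from 56.0, 64.0 and 12.0 fragments, with replicate 3 the lowest. It made up 10.9% ± 2.93 of the catalytic FPKM. The levels of Cyba and Cybb differed widely, with a log2 ratio of Cyba over Cybb of 4.06 ± 0.69.

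Among its cytosolic partners, Ncf1 (p47phox, the organiser) had 1.45, 1.38 and 1.89 FPKM, below every Cybb value, with a ratio over Cybb of 0.453 (interval 0.296 to 0.675). In replicate 2, an isoform with a non-coding RefSeq label was given 37.1% of the Ncf1 total, at 0.513 FPKM (bounds 0 to 1.44). The main isoform stood there at 0.869 FPKM (bounds 0.181 to 1.56), under 1 FPKM by itself. These bounds overlap, so the split is not resolved at this depth. Ncf1 also matches the gene Gtf2ird2 over 179 bases at full identity, which limits its level. Ncf4 (p40phox) had 1.64, 1.84 and 0.623 FPKM, with a ratio over Cybb of 0.485 (interval 0.279 to 0.796). The log2 ratio of Ncf1 over Cybb was -0.15 in replicate 3, against -1.11 and -1.35 in replicates 1 and 2.

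Rac2, the GTPase of blood cells, had 2.22, 2.21 and 0.560 FPKM, so it and Ncf4 fell short of 1 FPKM in replicate 3 alone. In that file, the shallowest, Rac2 rested on 2.00 fragments and Ncf4 on 0.999, so the shortfall is not resolved at this depth. Cybc1, the chaperone needed for Cybb maturation, had 12.1, 12.0 and 10.4 FPKM and is listed in the files under the symbol BC017643. Its sum was steady, although the isoform with the largest share was a different one in each file. Nrros, which lowers the amount of Cybb protein in phagocytes, stood at 1.46 ± 0.258 FPKM, and the small GTPase Rap1a at 46.9 ± 3.00 FPKM, with a pseudogene match over 23.0% of its transcript. Of the 6 phagocyte partners described, 4 were at 1 FPKM or more in every file, and all 6 were by their mean over the files.

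Beside these levels, the summed FPKM of the 10 macrophage markers was 232, 236 and 248 in replicates 1, 2 and 3. Lyz2 alone gave 124, 122 and 130 FPKM of it, so the sum mostly follows the highest markers. Adgre1 had 3.26, 3.17 and 1.83 FPKM and Csf1r 7.70, 7.12 and 7.80 FPKM. The summed FPKM of the 9 neutrophil markers was 1.62, 1.14 and 1.10. Most of it came from Cxcr2, with 0.579, 0.462 and 0.861 FPKM, and Csf3r, with 0.437, 0.576 and 0.235 FPKM. Camp had 0.606 FPKM in replicate 1 only and Ltf 0.103 FPKM in replicate 2 only. S100a8, S100a9, Mpo, Elane and Ngp were at 0 in every file. The 5 B cell markers summed to 3.72, 5.39 and 5.45 FPKM, and of these Pax5 was at 0. The part of each cell type in the Cybb level was not tested.

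Nox4, which makes mainly hydrogen peroxide and is best known from kidney and from fibroblasts and vessel walls, was nearly absent. It had 0.147, 0.0737 and 0.449 FPKM in replicates 1, 2 and 3 (chromosome 7, 87246649 to 87398708), from 2.00, 1.00 and 2.00 fragments. Its mean of 0.223 FPKM was 0.111 FPKM without replicate 3. By summed fragments its partner Cyba had 301 times its level (interval 127 to 934), and Poldip2, a protein reported to bind Cyba and raise Nox4 activity, stood at 19.7 ± 1.68 FPKM. Fibroblast, smooth muscle and endothelial markers were all present, as given above. Nox3, the oxidase of the inner ear, had no fragment in any file, which allows up to 0.209 FPKM, the level that 3 fragments over all files would give.

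In the chi-square test over 8771 genes, the 5 single-isoform members averaging 1 FPKM or more (Nox1, Noxo1, Cybb, Duox2 and Duoxa2) gave 0 calls, with an adjusted p of 0.997 or 0.998 and 0 of 5 at an unadjusted p under 0.05. Over all genes so tested, 7 (0.0798%) were called and 436 had an unadjusted p under 0.05, so a count of 0 among 5 genes is near the background and is no result about the members. With all genes tested and isoform variances summed, 0 of 7 members were called, against 15 of 12629 genes (0.119%), Cyba having the smallest unadjusted p at 0.125 by the chi-square test.

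The remaining partners were mostly present. Rac1, the GTPase used by Nox1, had 215, 215 and 220 FPKM. In GENCODE M21 the gene Daglb matches 2309 bases of the Rac1 transcript at full identity, which is 55.5% of that transcript. The authors' model of Rac1 is shorter, and the part of the match inside it was not tested, so the level is uncertain. Rac3 stood at 1.16, 1.74 and 3.52 FPKM. The alternative organisers Sh3pxd2a (Tks5) and Sh3pxd2b (Tks4) stood at 4.25 ± 0.354 and 2.67 ± 0.239 FPKM, below the 18.1 ± 0.480 FPKM of Noxo1, and Arhgef7, an exchange factor for Rac1, at 9.63 ± 1.28 FPKM. Of these 7 genes, Nox3 included, 6 were present in every file.

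All 5 cytosolic NADPH suppliers were present, at a median of 38.9 FPKM, with the pentose phosphate enzyme Pgd at 67.6 ± 2.52 FPKM, Idh1 at 56.0 ± 5.65 FPKM and the NAD kinase Nadk at 38.9 ± 1.21 FPKM. The 3 superoxide dismutases, which turn superoxide into hydrogen peroxide, ranged from Sod3 (13.0 ± 2.12 FPKM) over Sod2 (26.5 ± 0.913 FPKM) to Sod1 (363 ± 6.15 FPKM). All 13 enzymes of peroxide removal were present, at a median of 81.7 FPKM. They were led by Prdx6 (1409 ± 20.2 FPKM), Prdx1 (265 ± 3.66 FPKM) and Gpx2, the gut glutathione peroxidase (202 ± 6.32 FPKM), each of which was far above the summed FPKM of the 5 catalytic oxidase genes.

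Of 4 peroxidases that use hydrogen peroxide, Pxdn, which cross-links collagen IV, stood at 5.49 ± 0.756 FPKM and the lactoperoxidase gene Lpo at 2.27 ± 0.520 FPKM. Mpo and Epx, the peroxidases of neutrophils and eosinophils, had no fragment in any file, which allows up to 0.143 and 0.135 FPKM in that order. Of the aquaporins that pass hydrogen peroxide, Aqp8 had 184 ± 10.2 FPKM while Aqp3 had no fragment in any file, which allows up to 0.213 FPKM.

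Among 7 cytokines known to induce these oxidases, Il22, Il17a and Ifng had no fragment in any file, which allows up to 0.369, 0.338 and 0.326 FPKM in that order. Tnf stood at 0.355 FPKM in replicate 2 and at 0 in the others, and Il1b had 0.227, 0.682 and 1.38 FPKM. Il18 (111 ± 9.36 FPKM) and Tgfb1 (5.50 ± 1.01 FPKM) were present in every file. Of 14 receptors and adaptors for such signals, 12 were present in every file, the highest being Ifngr1 (143 ± 1.44 FPKM), Ifngr2 (101 ± 6.25 FPKM) and Il10rb (47.7 ± 3.70 FPKM). The bacterial peptide sensor Nod2 had 0.415, 0.178 and 0.722 FPKM, and the flagellin receptor Tlr5 had 1.31, 0.435 and 0.265 FPKM.

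All 6 transcription factors listed as reported to act on Nox1 or Duox2 were present, at a median of 14.8 FPKM, with Stat3 at 24.9 ± 1.51 FPKM, Gata6 at 17.6 ± 2.61 FPKM and Relb at 15.6 ± 1.40 FPKM. Across the 10 lists around the oxidases, 54 of 67 genes stood at 1 FPKM or more in every file, against 48.5% of all gene symbols. That share is also the background of the counts given for the single lists. The lists were picked by known role with earlier results known, so these counts describe the lists and are no test of the pathway.

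**Figure D4:**
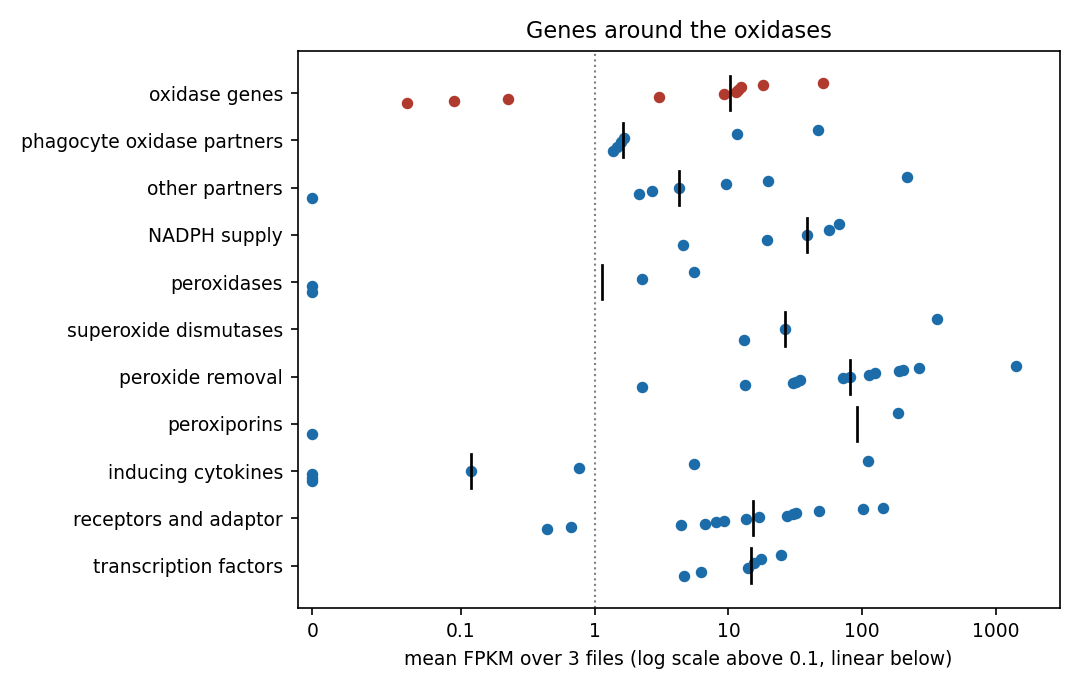
Mean FPKM over the 3 files of each gene (points; horizontal axis, log scale above 0.1 and linear below) in the oxidase family (top row) and the 10 lists around it, with the median of each row as a bar and 1 FPKM as a dotted line. Peroxide removal has a median of 81.7 FPKM, beside 10.3 FPKM for the oxidase genes, and the inducing cytokines have a median of 0.118 FPKM with 3 genes at 0.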

How the data were processed

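Cufflinks isoform tables, 1 per labelled library, were used as deposited. Per the file headers, the authors give FPKM with 95% confidence bounds and a coverage signal per isoform; the coverage deposited by the authors was not analysed. The submitters' processing notes list Cufflinks 2.2.1, TopHat2 2.1.1 and Bowtie2 2.3.4.3, and the labels' protocols an Illumina TruSeq kit. The sources used here do not state strandedness or the treatment of multiply matching reads. The notes name GRCm39, but 9 of 10 members had a start or an end within 50 bases of RefSeq on GRCm38.p6, so positions are given as GRCm38.

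Isoform FPKM were summed per symbol. Cybc1 was matched by RefSeq accession. A bound was read as 2 standard errors. Over genes of 1 isoform, more than 800 bases and at most 30 fragments, 63.3%, 63.3% and 63.4% of recovered fragments lay within 0.01 of a whole number, and their Theil-Sen slope on length gave the depth, with 164 bases taken off each length. The file comparison is a chi-square test with sampling variances from the bounds over all 8771 genes, Benjamini-Hochberg adjusted at 0.05. It was tested on simulated data for those genes: 37.0% of 1.5-fold and 79.0% of 2-fold changes in 1 file were recovered, with 8 unchanged genes called, and 1 call when nothing changed. The intervals are exact (Clopper-Pearson), and the limit of a gene listed at 0 is 3 fragments over all files at its shortest isoform. Both cover counting error only.

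The members and lists were chosen with earlier results of these data known. Some genes of these lists are not reported here, and counts leave them out. Otherwise the text names every member, every partner gene, and of each other list the 3 highest and up to 3 under 1 FPKM in every file. Markers and Tlr5, Tnf and Il1b, and the genes overlapping or matching members, were named after values were seen. Matches of at least 100 bases at 97% identity were sought for 23 genes in GENCODE M21 transcripts with BLAST+ 2.17.0. Identity was taken over each whole alignment, so an identical stretch inside a less similar alignment can be missed. The 170 bases shared by Duox1 and Duox2 were not among its matches and were found by a separate comparison. Promoter windows are those of RefSeq. Scripts used SciPy 1.17.1, pandas 2.3.3 and numpy 2.4.6 in Python 3.11.15, with figures drawn by matplotlib 3.10.9. Alternatives covered thresholds, pseudocounts, TPM scaling, the highest isoform, the genes tested between files and leaving out each replicate.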

Additional observations from a re-analysis of the deposited data

How the results depend on the processing

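The number of oxidase genes at threshold in every file was 7 under each alternative run (0.5 and 2 FPKM, mean over files, highest isoform, TPM and without each replicate), and the count over the surrounding lists ranged from 49 to 56. No log2 ratio whose interval excluded a ratio of 1 changed sign. With each gene's highest isoform alone, Noxa1 over Nox1 was -1.12, since Noxa1 is divided between isoforms. With a pseudocount of 1 FPKM, which pulls low genes together, Cyba over Nox4 was 5.41, Ncf4 over Cybb -0.78, Duox2 over Duox1 3.54 and Duoxa2 over Duoxa1 3.53. With no pseudocount, Cyba over Nox4 was 8.22 and Duox2 over Duox1 7.07, and the pairs with Duoxa1 gave no value because it is listed at 0 in 2 files. Genes called as unequal between files numbered 15 with all genes tested and 4 to 6 when 1 file was left out (4 without replicate 1, 4 without replicate 2), against 7, and the cause was not tested. Of the alternative values of the members' mean levels and isoform shares, 10 moved by more than their SD, 9 of them under TPM, which changes the unit, and 46 did not. Depth limits Nox4, Duox1 and Duoxa1, which rest on 5 fragments or fewer. No paired analysis was possible because the samples form 1 group.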
